A study of Homo sapiens with 3 samples.

Results

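The transcripts of 10 heterogeneous nuclear ribonucleoprotein (hnRNP) genes were examined for peaks of RNA crosslinked to CSTF2tau. Members were chosen by Ensembl gene ID from a list made up of HNRNPA1, HNRNPA2B1, HNRNPC, HNRNPD, HNRNPF, HNRNPH1, HNRNPK, HNRNPL, HNRNPM and HNRNPU. They account for 10 of the 13356 gene IDs in the peak lists and for 443 of the 202310 peaks. All 10 had peaks in each replicate, against 33.0% of all gene IDs, that is 4414 of 13356.

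The data are sCLIP libraries, in which RNA is crosslinked to protein by ultraviolet light in living cells, partly digested, recovered with an antibody and sequenced. The 3 samples form 1 group of biological replicates of BE(2)-C, an established human neuroblastoma line derived from a bone marrow metastasis. The cells were labelled wild type, and the antibody was raised against CSTF2tau. The labels give no treatment, and neither an input nor a control immunoprecipitation was used here. Values were therefore compared between replicates and between genes within a replicate.

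CSTF2tau is a paralogue of CSTF2, the subunit through which the cleavage stimulation factor contacts RNA. This complex binds U-rich and GU-rich RNA downstream of the polyadenylation signal and acts in 3' end cleavage of pre-mRNA. The hnRNPs are abundant nuclear RNA-binding proteins that coat nascent transcripts and act in splicing, nuclear retention and export, and mRNA stability. Many hnRNP genes are themselves regulated through alternative splicing of their own transcripts.

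The lists held 105203, 18346 and 78761 peaks in replicates 1, 2 and 3, with 736059, 108434 and 387784 reads inside them. Replicate 2 was therefore the shallowest list, with the widest counting error on each value. Reads per peak were taken from the last number of each peak name, a reading that no source states and on which all read values here rest. No list held a peak of under 3 reads, so the absence of a peak is not an absence of reads. Positions are hg19 and were not assigned to exons, introns or untranslated regions, because no hg19 annotation was used here. Cell type markers were not analysed here, because no table used here pairs their symbols with the gene IDs of the lists. HNRNPA1, HNRNPC and HNRNPK have processed pseudogenes, and HNRNPF and HNRNPH1 are close relatives of each other. How reads with several possible positions were treated is not given in the sources used here, so their counts are uncertain to that extent.

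The hnRNP transcripts together held less than 1% of the listed reads in each replicate. They had 3019 reads in 266 peaks in replicate 1, 388 reads in 42 peaks in replicate 2 and 1057 reads in 135 peaks in replicate 3. Their share of all listed reads was 0.410% in replicate 1 (95% exact Clopper-Pearson interval 0.396 to 0.425). It was 0.358% in replicate 2 (0.323 to 0.395) and 0.273% in replicate 3 (0.256 to 0.289). The mean was 0.347% ± 0.0694 (SD, n = 3), and the highest share was 1.5 times the lowest. None of the 3 intervals met another, though those of replicates 1 and 2 missed only narrowly, so the shares differed by more than counting error covers. A larger share can reflect more transcript or more binding per transcript, and without an input library these cannot be told apart.

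A typical hnRNP gene ID held far more reads than a typical gene ID of the lists. The median over the 10 members was 326 reads summed over the 3 replicates, against 25.0 over all gene IDs. The median number of loci, meaning positions where overlapping peaks of any replicate were joined, was 28.0 for the members and 5 for all gene IDs. The listed span, from the first to the last peak, had a median of 13.2 kb for the members and 15.6 kb for all gene IDs, many of which hold few loci. It was 45.3 kb for the 7095 gene IDs with at least 5 loci, as each member has. Levels were compared between genes as RPM per kb, meaning reads per kb of listed span scaled to 1000000 listed reads. The members had a median of 13.7 RPM per kb, against 1.35 for those gene IDs. Each of the 10 members lay above that median.

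**Figure D1:**
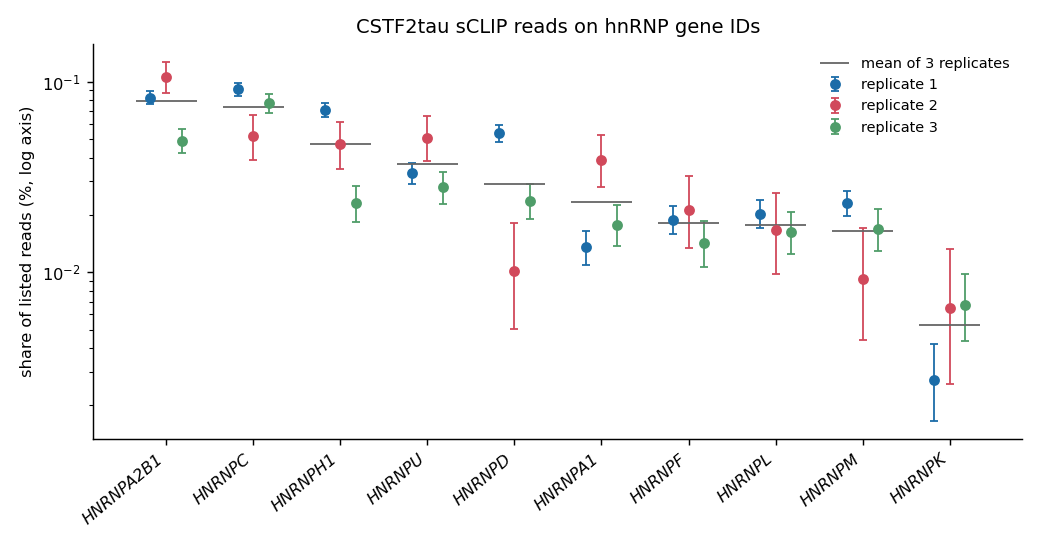
Share of listed reads of each hnRNP gene ID in the 3 replicates, in percent on a log axis, with a point per replicate, its 95% exact interval as the error bar and a line for the mean. HNRNPA2B1 and HNRNPC lie highest and HNRNPK lowest, and the replicates of HNRNPD are 5.29-fold apart.

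HNRNPA1 and HNRNPA2B1 encode the core A and B proteins of hnRNP particles, which repress the use of many splice sites. HNRNPA2B1 (ENSG00000122566, chr7:26229637-26240258, minus strand) had 607, 115 and 190 reads in replicates 1, 2 and 3. These were 0.0825%, 0.106% and 0.0490% of the listed reads, with a mean of 0.0792% ± 0.0287 (SD, n = 3). It ranked 148 of 13356 gene IDs by mean share, the highest of the members, but this place rests on replicate 2. Without replicate 2 its mean share was 0.0657%, below the 0.0843% of HNRNPC. HNRNPA1 (ENSG00000135486, chr12:54676843-54680952, plus strand) had 99, 42 and 69 reads, or 0.0135%, 0.0387% and 0.0178%, with a mean of 0.0233% ± 0.0135 (SD, n = 3). Both genes are short, and per kb of span they were the top members. HNRNPA2B1 had 74.5 ± 27.0 and HNRNPA1 56.8 ± 32.9 RPM per kb (SD, n = 3), ranks 30 and 45 of 7095.

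HNRNPC encodes the C proteins, which bind uridine tracts and package nascent transcripts. HNRNPC (ENSG00000092199, chr14:21677405-21736772, minus strand) had 671, 56 and 300 reads, or 0.0912%, 0.0516% and 0.0774%, with a mean of 0.0734% ± 0.0201 (SD, n = 3). It had the most loci of the members, 85, over the longest listed span, 59.4 kb. It had 12.4 ± 3.38 RPM per kb (SD, n = 3), below the median of the members.

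HNRNPD encodes AUF1, which binds AU-rich elements and takes part in mRNA decay. HNRNPD (ENSG00000138668, chr4:83274337-83295322, minus strand) had 395, 11 and 92 reads, or 0.0537%, 0.0101% and 0.0237%. Its mean was 0.0292% ± 0.0223 (SD, n = 3), and its replicates lay furthest apart of all members, 5.29-fold. Replicate 1 was high and replicate 2, with 2 peaks, was low.

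HNRNPF and HNRNPH1 encode proteins that bind G-rich runs and act in splicing and in polyadenylation. HNRNPH1 (ENSG00000169045, chr5:179041081-179049712, minus strand) had 525, 51 and 89 reads, or 0.0713%, 0.0470% and 0.0230%, with a mean of 0.0471% ± 0.0242 (SD, n = 3). HNRNPF (ENSG00000169813, chr10:43881410-43903685, minus strand) had 139, 23 and 55 reads, or 0.0189%, 0.0212% and 0.0142%, with a mean of 0.0181% ± 0.00358 (SD, n = 3). The relatives thus differed in level and in spread. HNRNPH1 had 54.6 ± 28.0 and HNRNPF 8.12 ± 1.61 RPM per kb (SD, n = 3).

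HNRNPK encodes a KH-domain protein that binds C-rich RNA. HNRNPK (ENSG00000165119, chr9:86583121-86591718, minus strand) had the lowest share of the members, with 20, 7 and 26 reads, or 0.00272%, 0.00646% and 0.00670%. Its mean was 0.00529% ± 0.00223 (SD, n = 3), rank 3752 of 13356. HNRNPL encodes a protein that binds CA repeats. HNRNPL (ENSG00000104824, chr19:39326947-39340000, minus strand) had 149, 18 and 63 reads, or 0.0202%, 0.0166% and 0.0162%. It was the steadiest member, 1.25-fold between its highest and lowest replicate, with a mean of 0.0177% ± 0.00221 (SD, n = 3).

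HNRNPM encodes a splicing regulator that binds GU-rich RNA. HNRNPM (ENSG00000099783, chr19:8509859-8554089, plus strand) had 170, 10 and 65 reads, or 0.0231%, 0.00922% and 0.0168%, with a mean of 0.0164% ± 0.00695 (SD, n = 3). It had the lowest level per length of the members, 3.70 ± 1.57 RPM per kb (SD, n = 3). HNRNPU encodes scaffold attachment factor A, which binds RNA and chromatin. HNRNPU (ENSG00000153187, chr1:245014371-245027703, minus strand) had 244, 55 and 108 reads, or 0.0331%, 0.0507% and 0.0279%. Its mean was 0.0372% ± 0.0120 (SD, n = 3), and it had 27.9 ± 8.98 RPM per kb (SD, n = 3).

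The order of the members was loose. By mean share the order was HNRNPA2B1, HNRNPC, HNRNPH1, HNRNPU, HNRNPD, HNRNPA1, HNRNPF, HNRNPL, HNRNPM and HNRNPK. In 8 of the 9 pairs of neighbours the ranges over replicates overlapped. Only HNRNPM and HNRNPK did not, with a lowest share of 0.00922% for HNRNPM and a highest of 0.00670% for HNRNPK. That HNRNPM value was 1 peak of 10 reads in replicate 2, and its exact interval, 0.00442 to 0.0170, covers the HNRNPK value. Per kb of span all 9 pairs overlapped. Across the 10 members the shares in replicates 1 and 3 had a Spearman correlation of 0.88, replicates 2 and 3 had 0.79 and replicates 1 and 2 had 0.68. These correlations describe 10 genes and carry no test.

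The 3 gene IDs with the levels most like the median of the members over the 3 replicates were chosen by Euclidean distance of log2 shares. They were ENSG00000246067 (chr11:82783140-82806032, plus strand, distance 0.144), ENSG00000111605 (chr12:69644200-69667724, plus strand, distance 0.160) and ENSG00000136527 (chr3:185633621-185655520, minus strand, distance 0.165). ENSG00000246067 had 0.0266%, 0.0314% and 0.0206% in replicates 1, 2 and 3, close to the median of the members in each. The likeness rests on 3 values per gene ID.

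Some peaks of 3 members overlapped peaks listed under other gene IDs on the same strand, and those results depend on them. HNRNPA1 lies within the peaks of ENSG00000258344, which held 44 peaks and 396 reads in the HNRNPA1 span, and all 19 HNRNPA1 peaks overlapped them. In HNRNPU, ENSG00000188206 held 23 peaks with 238 reads, and 18 HNRNPU peaks with 48.4% of its reads overlapped them. In HNRNPL, 2 other gene IDs held 10 peaks with 70 reads, and 6 HNRNPL peaks with 20.9% of its reads overlapped them. The other 7 members had no peak of another gene ID in their span, and no member had one on the opposite strand. Without peaks that overlap another gene ID, the mean share was 0 for HNRNPA1, 0.0148% for HNRNPU and 0.0133% for HNRNPL, and 0.297% for all members together.

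Individual hnRNP peaks were taller than the rest of each list. The median reads per peak were 8.5, 6.0 and 6.0 for the members in replicates 1, 2 and 3, against 5.0, 4.0 and 4.0 for all peaks. Peaks of at least 10 reads made up 45.1%, 26.2% and 25.9% of member peaks, against 18.9%, 12.4% and 5.96% of all peaks. Their widths differed less, with a median of 63.0, 73.0 and 70.0 nt for member peaks and 79, 72 and 69 nt for all peaks. The narrower member peaks of replicate 1 went with peaks that touched end to end. There were 55 such peaks among the members in replicate 1, or 20.7%, against 4.74% of all peaks, and 32 of the 55 were in HNRNPA2B1 and HNRNPH1. Replicates 2 and 3 had 0 and 3 among the members.

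Positions recurred between replicates more often for the members than for the lists as a whole. A cluster of overlapping peaks was counted as shared when it met a cluster of another replicate on the same strand by at least 1 nt. Of the member clusters, 90 of 266 were shared in replicate 1, or 33.8% (exact interval 28.2 to 39.9), against 15.2% of all clusters. In replicate 2 the counts were 32 of 42, or 76.2% (60.5 to 87.9), against 35.0%. In replicate 3 they were 74 of 135, or 54.8% (46.0 to 63.4), against 16.8%. Taller peaks are shared more often, and the members' peaks are taller, so the shares were also taken by height. For peaks of 3 to 4 reads they were 32.7%, 58.8% and 60.5% for the members and 8.88%, 25.5% and 10.3% for all gene IDs. For peaks of 20 reads or more they were 56.7%, 100% and 60.0% for the members, where replicates 2 and 3 had only 3 and 5 such peaks, and 40.3%, 72.3% and 81.7% for all gene IDs. The difference was thus present among low peaks in each replicate and turned the other way among the tallest peaks of replicate 3. Loci covered a median of 14.1% of a member's span, against 2.80% over gene IDs with at least 5 loci, and the part of this denser coverage in the sharing was not tested.

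**Figure D2:**
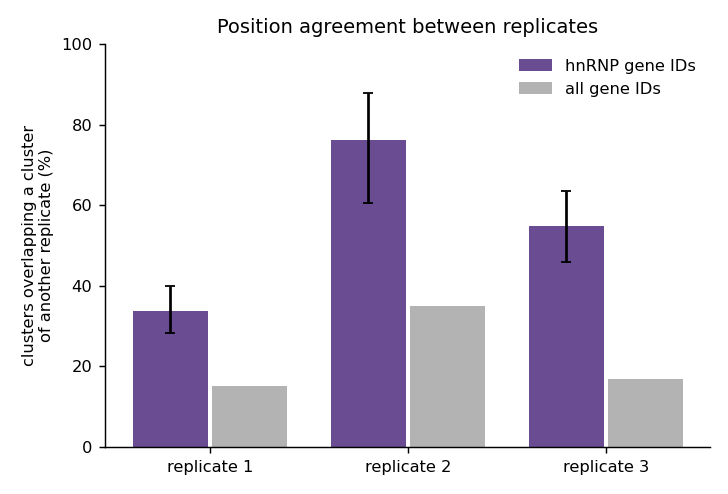
Percent of clusters that overlap a cluster of another replicate, for hnRNP gene IDs with 95% exact intervals as error bars and for all gene IDs, in each replicate. The hnRNP bars stand at 33.8%, 76.2% and 54.8% in replicates 1, 2 and 3, against 15.2%, 35.0% and 16.8% for all gene IDs.

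The members had 331 loci, of which 10 had a peak in every replicate, 74 in 2 of them and 247 in a single replicate. That is 3.02% in all 3 and 25.4% in at least 2, against 0.882% and 8.54% of all loci. The 10 loci belonged to 5 members, against 16.8% of all gene IDs listed in every replicate that held such a locus. HNRNPA2B1 had 4, HNRNPA1 and HNRNPC 2 each, and HNRNPH1 and HNRNPU 1 each. Because the lists differ in depth, these loci were compared by their share of all listed reads. The HNRNPA2B1 locus at chr7:26232862-26232996 had 107, 6 and 17 reads, or 0.0145%, 0.00553% and 0.00438%, and was highest in replicate 1. The HNRNPH1 locus at chr5:179046197-179046454 had 72, 6 and 33 reads, or 0.00978%, 0.00553% and 0.00851%, and was closer between replicates. The steadiest were in HNRNPC and HNRNPA1. The HNRNPC locus at chr14:21729659-21729771 had 25, 5 and 15 reads, a share of 0.00340%, 0.00461% and 0.00387% with a mean of 0.00396% ± 6.12e-04 (SD, n = 3). The HNRNPA1 locus at chr12:54679194-54679335 had 21, 3 and 9 reads, with a mean share of 0.00265% ± 2.86e-04 (SD, n = 3).

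The other recurrent loci differed more in share. In HNRNPA2B1, chr7:26231801-26231914 had 3, 15 and 25 reads, or 4.08e-04%, 0.0138% and 0.00645%, and so was low in replicate 1. The neighbouring chr7:26231368-26231453 had 10, 15 and 18 reads, and chr7:26236018-26236113 had 46, 9 and 5. In HNRNPA1, chr12:54679873-54680037 had 37, 11 and 17 reads, or 0.00503%, 0.0101% and 0.00438%. At the low end, the HNRNPU locus at chr1:245015338-245015423 had 4, 6 and 3 reads and the HNRNPC locus at chr14:21725811-21725938 had 9, 3 and 4, close to the minimum a listed peak can hold. Where a locus was shared, the distance between the narrow stretches marked inside the peaks of both replicates was taken. Each stretch lies inside its peak, so the overlap that defines a shared locus already keeps this distance short. The median distance was 18.0 nt over 21 shared hnRNP loci for replicates 1 and 2, against 26.0 nt for all loci. It was 22.0 nt over 62 for replicates 1 and 3, against 24.0 nt, and 17.0 nt over 21 for replicates 2 and 3, against 21.0 nt.

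The next comparison asked where along the hnRNP transcripts the reads lay, since CSTF2tau acts at 3' ends. Of the members' reads, 10.3% in replicate 1, 46.6% in replicate 2 and 14.0% in replicate 3 lay in the final 10% of the listed span. Over all gene IDs with at least 5 loci these values were 15.6%, 26.2% and 13.9%. The hnRNP reads were therefore concentrated at the 3' edge in replicate 2, and not in replicates 1 and 3. The first 10% held 13.4%, 7.47% and 10.4% of the members' reads and 17.7%, 14.9% and 16.6% of those of the gene IDs with at least 5 loci. The ends of a listed span are the outermost peaks and not annotated transcript ends.

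**Figure D3:**
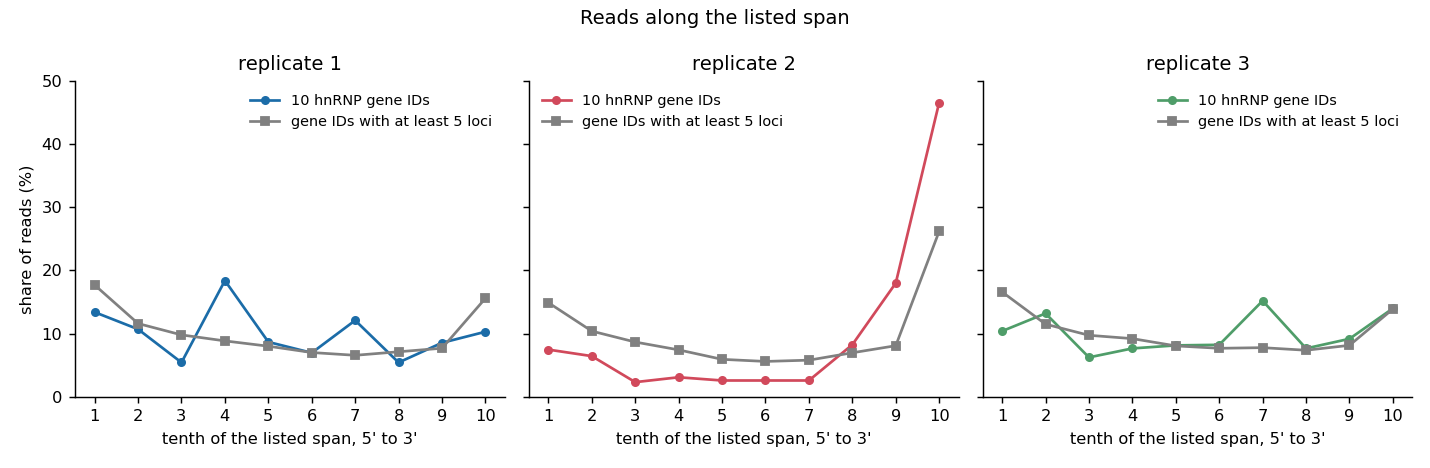
Percent of reads along the listed span, 5' to 3' in steps of 10% of its length, for the 10 hnRNP gene IDs and for gene IDs with at least 5 loci, with 1 panel per replicate. The hnRNP line ends at 46.6% in replicate 2, against 10.3% in replicate 1 and 14.0% in replicate 3.

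For each gene ID, reads in the last 10% of the span were tested against reads in the first 10% by an exact binomial test on the summed reads, with Benjamini-Hochberg adjustment over 6382 gene IDs. A call needed an adjusted p below 0.05 and one direction across all replicates that had reads at the ends. HNRNPF, HNRNPM and HNRNPU had a 3' call, meaning more reads at that end, 3 of 10 against 18.1% of all gene IDs tested. HNRNPC had a 5' call, 1 of 10 against 14.1%. The median log2 ratio of 3' over 5' reads was 0.56 for the members and 0.18 for all gene IDs, and it was above 0 for 8 of the 10 members and for 52.3% of all gene IDs. Listed reads need not be independent molecules, so these adjusted p-values cover counting error only.

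HNRNPU had 35, 6 and 50 reads in the 3' window and 28, 4 and 0 in the 5' window in replicates 1, 2 and 3. Its log2 ratio was 1.49 (exact binomial test, Benjamini-Hochberg adjusted p = 5.9e-07). Without the peaks that overlap ENSG00000188206 the ratio was -1.77. The 3'-most HNRNPU peak was among those removed, so the listed span and its end windows were redrawn. That ratio thus compares other regions, and whether the direction in the main windows rests on those peaks was not tested. HNRNPF had 39, 17 and 8 reads in the 3' window against 27, 0 and 0 in the 5' window, and its log2 ratio was 1.23 (exact binomial test, adjusted p = 4.9e-04). HNRNPM had 36, 10 and 8 against 26, 0 and 3, and its log2 ratio was 0.89 (exact binomial test, adjusted p = 0.02). Neither HNRNPF nor HNRNPM was called without replicate 2, with log2 ratios of 0.79 and 0.59. HNRNPF was also not called without replicate 1, at 0.81, nor HNRNPM without replicate 3, at 0.81. With a replicate left out, the end windows were redrawn from the remaining peaks. All HNRNPF reads in the main 5' window were from replicate 1, so without it the 5' window was another region. That HNRNPF ratio is therefore not a weaker 3' excess in the main windows. With replicate 2 left out, 1 member had a 3' call and 2 had a 5' call.

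HNRNPC had 57, 8 and 14 reads in the 3' window and 103, 21 and 69 in the 5' window, and its log2 ratio was -1.28 (exact binomial test, adjusted p = 3.5e-11). It was the only member with a 5' call, and it kept the call with any replicate left out. Its strongest peaks lay well inside the span, with 36 reads at chr14:21712329-21712477 in replicate 1 and 17 reads at chr14:21695887-21695965 in replicate 3. In replicate 2 the strongest had 12 reads at a locus of chr14:21730839-21730995, which was the HNRNPC locus with the highest mean share and had 0, 12 and 8 reads in replicates 1, 2 and 3.

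The other 6 members had no call, and in each of them the replicates pointed in opposite directions. HNRNPA1 had 0, 18 and 22 reads in the 3' window and 4, 0 and 0 in the 5' window, a log2 ratio of 3.17. HNRNPA2B1 had 14, 63 and 20 in the 3' window and 54, 0 and 0 in the 5' window, a log2 ratio of 0.84. HNRNPH1 had 51, 45 and 8 in the 3' window and 85, 0 and 5 in the 5' window, a log2 ratio of 0.21. In these 3 genes replicate 1 alone had more reads at the 5' end. Without replicate 1, HNRNPH1 was called at the 3' end with a log2 ratio of 3.28 and HNRNPA1 with 2.64. The main 5' window of HNRNPA1 held replicate 1 reads only and was redrawn further inside without them. Its ratios of 2.64 and 3.17 thus compare different regions. Without replicate 2, the ratios of HNRNPH1 and HNRNPA2B1 turned to -0.61 and -0.66. HNRNPD had 58, 5 and 8 reads in the 3' window and 49, 0 and 13 in the 5' window, so replicate 3 alone had more in the 5' window. HNRNPK had 9, 3 and 4 and, in the 5' window, 0, 4 and 9, so replicate 1 alone had more in the 3' window. HNRNPL had 13, 6 and 6 and, in the 5' window, 30, 0 and 11, so replicate 2 alone had more in the 3' window. HNRNPD, HNRNPK and HNRNPL, with log2 ratios of 0.19, 0.29 and -0.70, also missed the threshold of the test, as did HNRNPH1. HNRNPA1 and HNRNPA2B1 met it (exact binomial test, adjusted p = 1.1e-07 and 0.0019) and were uncalled for direction only.

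The same split between replicates was seen at the single locus nearest the 3' edge of each member, a comparison chosen after the data had been seen. It was made over the 4125 gene IDs with at least 5 loci that were listed in every replicate. HNRNPA2B1 had 0, 50 and 9 reads at chr7:26229637-26229755, and HNRNPH1 had 0, 45 and 5 reads at chr5:179041081-179041177. HNRNPA1 had 0, 18 and 22 reads at chr12:54680876-54680952, HNRNPF had 0, 12 and 4 at chr10:43881410-43881477 and HNRNPL had 0, 6 and 6 at chr19:39326947-39327016. These 5 members had a peak there in replicates 2 and 3 and none in replicate 1, the deepest list. The same pattern held for 4.75% of those gene IDs. A peak in replicates 1 and 2 and none in 3 was seen for 1 member, against 1.92%. For replicates 1 and 3 without 2 it was 1 member, against 3.93%. Member loci were in general more often in at least 2 replicates, 25.4% against 8.54%. The part of this in the pattern was not tested. In the HNRNPA1 locus another gene ID had 5 reads in replicate 1. Counting peaks of any gene ID, the pattern of replicates 2 and 3 thus held for 4 of 10 members, against 4.68% of the 4125 gene IDs. A peak counted as absent where none overlapped the locus by at least 1 nt. In HNRNPL the nearest locus with replicate 1 reads, 13 at chr19:39327152-39327235, lay 205 nt from the 3' edge. In HNRNPH1, HNRNPA1, HNRNPA2B1 and HNRNPF it lay 607, 722, 806 and 1324 nt from that edge.

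Where these peaks were listed they held a large part of the gene's reads in replicate 2. There the 3'-most locus held 88.2% of the HNRNPH1 reads, 52.2% of the HNRNPF reads, 43.5% of the HNRNPA2B1 reads, 42.9% of the HNRNPA1 reads and 33.3% of the HNRNPL reads. In replicate 3 the shares were lower, with 5.62% for HNRNPH1, 7.27% for HNRNPF, 4.74% for HNRNPA2B1, 31.9% for HNRNPA1 and 9.52% for HNRNPL. Expected reads in replicate 1 were taken from each locus's share of all listed reads in the other replicates. For the HNRNPA2B1 locus these shares were 0.0461% in replicate 2 and 0.00232% in replicate 3, which correspond to 339 and 17.1 reads among the listed reads of replicate 1. The lowest such value among the 5 members was 7.59 reads, for HNRNPF, scaled from 4 reads in replicate 3. These loci were picked for their peaks in replicates 2 and 3, and listed reads are not sequencing depth. The expected values therefore cannot tell why replicate 1 had no peak there, and the cause was not tested.

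**Figure D4:**
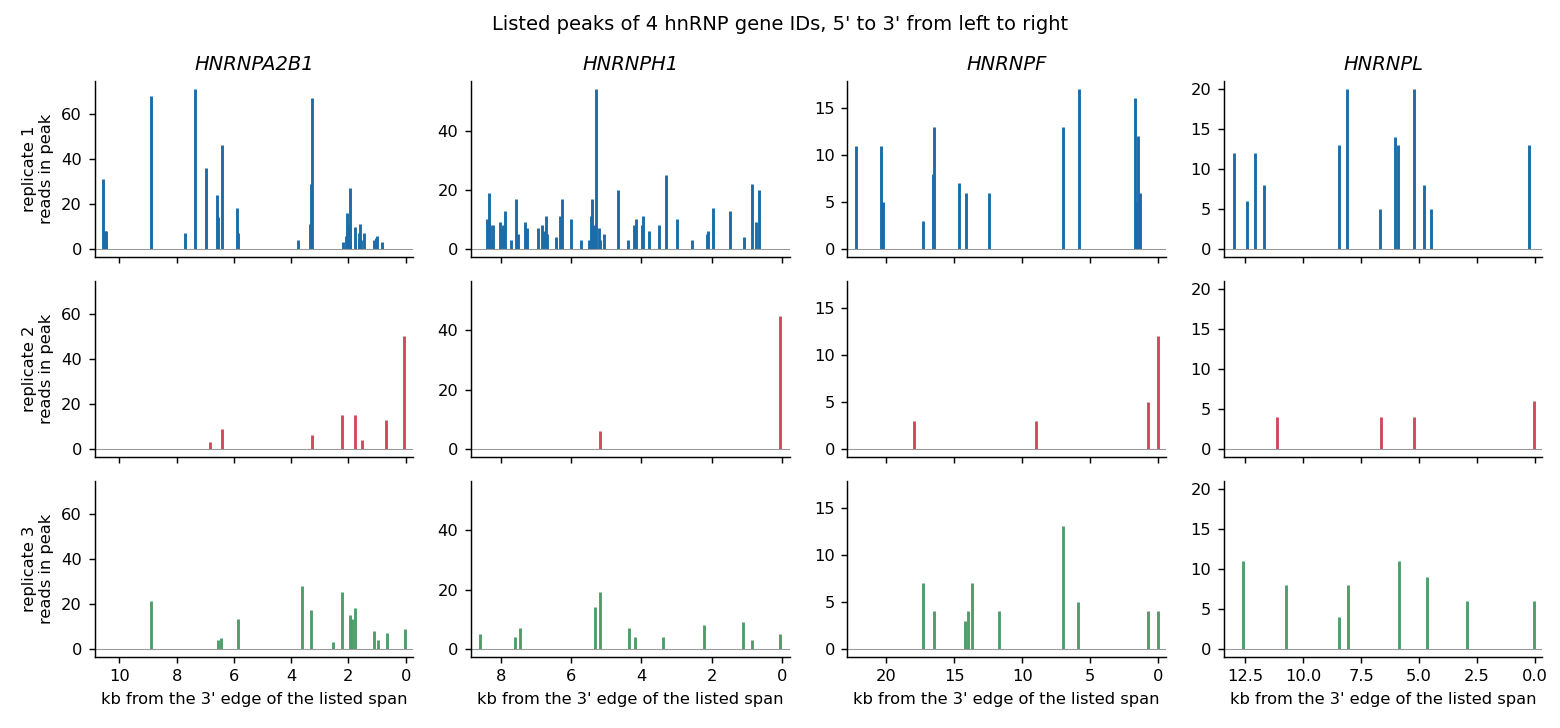
Listed peaks of HNRNPA2B1, HNRNPH1, HNRNPF and HNRNPL in the 3 replicates, by distance from the 3' edge of the listed span in kb, with the 3' edge at the right and the height giving the reads in the peak. Each gene has a peak at 0 kb in replicates 2 and 3 and none there in replicate 1. The replicate 1 peaks lie along the rest of the span, and the nearest in HNRNPL has 13 reads at 0.247 kb.

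**Figure D5:**
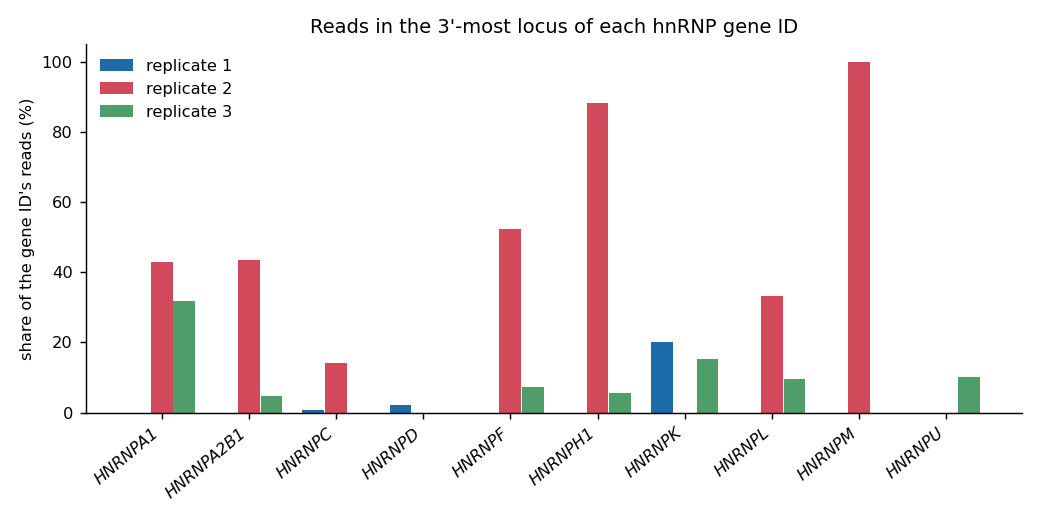
Percent of each gene's listed reads in its 3'-most locus, for each hnRNP gene ID in the 3 replicates. HNRNPA1, HNRNPA2B1, HNRNPF, HNRNPH1 and HNRNPL are at 0 in replicate 1 and between 33.3% and 88.2% in replicate 2.

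The other 5 members did not share this pattern. HNRNPM had its only replicate 2 peak there, with 10 reads at chr19:8554005-8554089, and none in replicates 1 and 3. Its next locus, chr19:8553804-8553949, had 12, 0 and 8 reads and lay 140 nt from the 3' edge. HNRNPU had 0, 0 and 11 reads under its own ID at chr1:245014371-245014443, but 32, 5 and 26 when peaks of any gene ID were counted. HNRNPC had 5, 8 and 0 reads at chr14:21677405-21677496, HNRNPD had 9, 0 and 0 at chr4:83274337-83274405 and HNRNPK had 4, 0 and 4 at chr9:86583121-86583183. Replicate 1 thus had a 3'-most peak in 3 members and none in 7 of 10, against 60.2% of the 4125 gene IDs with none.

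Over all members the 3'-most loci held 18 of 3019 reads in replicate 1, or 0.596%, against 2.24% over the 4125 gene IDs. They held 149 of 388 reads in replicate 2, or 38.4%, against 10.4%, and 61 of 1057 reads in replicate 3, or 5.77%, against 2.69%. The strongest peak of the gene stood in the 3'-most locus for 0 of 10 members in replicate 1, against 6.84% of those gene IDs. This was so for 6 of 10 in replicate 2, namely HNRNPA1, HNRNPA2B1, HNRNPF, HNRNPH1, HNRNPL and HNRNPM, against 22.3%. In replicate 3 it was so for 1 of 10, HNRNPA1, against 6.16%. The 5'-most locus had a peak in replicates 2 and 3 and none in replicate 1 for 1 of 10 members, against 0.630%, and held 3.21%, 1.03% and 1.14% of the members' reads in replicates 1, 2 and 3, against 2.77%, 2.35% and 2.58% over the 4125 gene IDs.

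Away from the 3' edge, the strongest peaks differed between replicates within most members. HNRNPA2B1 peaked at chr7:26236934-26237035 with 71 reads in replicate 1 and at chr7:26233177-26233313 with 28 in replicate 3. In HNRNPH1 and HNRNPK the strongest peaks of replicates 1 and 3 overlapped. They had 54 and 19 reads near chr5:179046303-179046429 in HNRNPH1 and 6 and 7 reads near chr9:86590563-86590642 in HNRNPK. HNRNPM peaked with 26 reads at chr19:8509859-8509992 in replicate 1, 44097 nt from its 3' edge, and with 22 reads at chr19:8522052-8522176 in replicate 3. In HNRNPU the locus with the highest mean share, chr1:245016584-245016697, had 0, 39 and 3 reads, and it held 70.9% of the HNRNPU reads in replicate 2. In HNRNPD that locus was chr4:83288180-83288341, with 47, 0 and 3 reads, and in HNRNPK it was chr9:86591638-86591718, with 0, 4 and 4. For HNRNPA1, HNRNPA2B1, HNRNPF, HNRNPH1, HNRNPL and HNRNPM it was the 3'-most locus, given above.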

How the data were processed

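The 3 replicates had a headerless peak list each. P-values were deposited by the authors with each peak, and the highest was 0.0491. Per the submitters' processing notes the build was hg19, and FastQC, SAMtools, STAR and bedtools were used, with no versions or roles. The peak caller and annotation are not given in the sources used here. Reads were taken from the last number in the authors' deposited peak names, which fell as the p-value rose (Spearman -0.988, -0.973 and -0.964 across peaks in replicates 1, 2 and 3). The totals of listed reads are not sequencing depth.

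Peaks were assigned by the gene ID in their name without its version. Same-strand peaks that overlapped by at least 1 nt were joined into clusters (per replicate) and loci (over replicates). Shares were divided by all listed reads. The end comparison took gene IDs with at least 5 loci and at least 10 reads at both ends together, with 0.5 reads added to each end for log2 ratios. An adjusted p below 0.05 was the threshold. Python 3.11.15, numpy 2.4.6, pandas 2.3.3 and scipy 1.17.1 were used. The end test was run on simulated independent reads, which does not cover the grouping of listed reads into peaks. Intervals at the 95% level cover counting error only.

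The members, lists and tests were chosen with earlier results of these data known. Named were all 10 members, the locus of each with the highest mean share and the member loci in all 3 replicates. Also named were the 3 gene IDs nearest in level, and gene IDs with peaks overlapping those of HNRNPA1 or HNRNPU. The strongest and outermost peaks were added after their values were seen. The files do not pair IDs with symbols, and 0 matched through the reference table, so other hnRNP genes, comparison families and marker lists were not analysed here. Alternatives changed the weight, p threshold, minimum reads, overlap, window and denominator, and left out replicates or peaks shared with another gene ID. Where peaks or replicates were left out, listed spans and end windows were redrawn from the remaining peaks.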

Additional observations from a re-analysis of the deposited data

Results flagged for a closer look

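Reads listed under other gene IDs within the spans of 3 members were not used in the comparisons of those members. They came to 396 reads in the span of HNRNPA1, with 221, 72 and 103 in replicates 1, 2 and 3. The span of HNRNPU held 238 such reads, with 121, 44 and 73, and the span of HNRNPL held 70. Under their own IDs HNRNPA1 had 210 reads and HNRNPU 407. In HNRNPA1, 1 peak of 30 reads in replicate 1 was listed at the same coordinates under both IDs, so those reads are also in the HNRNPA1 values. All 210 HNRNPA1 reads lay in peaks that overlap peaks of the other ID. No control library was used here to set these values against.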

How the results depend on the processing

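Of the alternatives run on the main results, 39 left the value within 1 SD of the replicates (for counts, within 1.5 times) and 15 moved it further. The share of listed reads, 0.347%, was 0.218% with each peak counted as 1 and 0.438% with only the peaks whose p was at most the list median. Loci in all 3 replicates, 10, were 6 with those peaks and 6 with peaks of at least 5 reads. Loci in at least 2, 84, were 52 and 44 under the same settings and 21 to 62 with a replicate left out, where fewer replicates can overlap. The mean percent of shared clusters, 54.9, was 29.7 to 38.0 with a replicate left out. The 3' calls, 3, were 0 with each peak counted as 1 and 1 to 4 with a replicate left out. With each peak as 1 the counts are small. HNRNPM then fell below the minimum of 10 for the test, and HNRNPF and HNRNPU kept log2 ratios of 1.28 and 1.06. The 5' calls, 1, were 2 with the span split at its middle and 1 to 2 with a replicate left out. The median of 13.7 RPM per kb of span was 104 per kb of summed locus length, which is shorter than the span. The 3'-most locus pattern, 5 members, was 4 or 5 throughout.

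Log2 ratios of 3' over 5' reads that turned were mostly uncalled. HNRNPD was -0.24 with the span split at its middle. HNRNPH1 was -0.69 with each peak counted as 1, -0.20 with the outer 20%, -0.64 with the span split at its middle and -0.61 to 3.28 with a replicate left out. HNRNPK was -1.08 with the median p, -0.98 with the outer 20%, -1.18 with the split at the middle and -0.85 to 1.47 with a replicate left out. HNRNPA2B1 was -0.66 to 1.89 and HNRNPL -1.09 to 0.12 with a replicate left out. Without peaks overlapping another gene ID, an alternative chosen after seeing the data, HNRNPL was 0.66 and HNRNPU, called in the main comparison, was -1.77. These ratios, and those with a replicate left out, used end windows redrawn from the remaining peaks. Apart from the constructions named, the cause was not tested. Replicate 2, with 388 hnRNP reads, limits the precision.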
